A study of Mus musculus with 15 samples.

Results

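The comparison described here set mouse embryonic stem (ES) cells differentiated with the small molecule CHIRON99021 (CHIR) against cells differentiated with the protein Rspo3, both taken at day 6. Its members were the 3 day 6 arrays of CDL medium and the 3 day 6 arrays of RDL medium, chosen by the labelled time point and treatment, which makes 6 of the 15 samples of the series. Both groups were line CK35 of strain 129Sv, plated without serum or feeder cells and given BMP4 at 10 ng/ml for the first 2 days. They were then moved to a medium with 0.5% DMSO and the BMP receptor inhibitor LDN193189 at 0.1 µM. The treatment labels number this inhibitor differently in the groups, and the name used here is that of the protocol. RDL medium also held Rspo3 at 10 ng/ml and CDL medium held CHIR at 1 µM in its place, so the Wnt activator was the labelled difference. Cells of both groups were sorted as positive for GFP made under Pax3, so they are a reporter-selected fraction of 1 cell line. The remaining 9 samples were ES cells at day 0 and RDL and CDL cells of day 4, with 3 arrays each. The labels call the arrays of a group biological replicates and do not say whether they came from separate cultures, so their spread may be technical. The p-values measure the spread within all 5 groups of the series, so the other 9 arrays enter them too. RNA from a bulk population was measured, so fewer cells of a type and less RNA per cell cannot be told apart.

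Canonical Wnt signalling acts through beta-catenin, which the kinase GSK3 marks for destruction when no Wnt ligand is bound. CHIR inhibits GSK3 inside the cell and so raises beta-catenin without a ligand or a receptor. R-spondins act at the cell surface: they bind Lgr receptors and the ligases Rnf43 and Znrf3 and so keep Frizzled receptors on the membrane, which raises the response to Wnt ligands that are already there. Wnt signalling maintains the posterior presomitic mesoderm, from which the somites form in turn under the Notch clock and under retinoic acid made by Aldh1a2. Pax3 comes on in the anterior presomitic mesoderm and stays on in the dermomyotome, the source of dermis and skeletal muscle.

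RNA was labelled in 2 amplification cycles and hybridised to Affymetrix arrays, and 12408 genes were tested. Signals are the authors' MAS5 values on a linear scale, and array medians lay between 30.3 and 31.2. The 14 spiked-in hybridisation control probe sets split the 6 arrays in 2 sets without overlap: all 14 were brighter on RDL replicate 1 and on CDL replicates 1 and 3 than on RDL replicates 2 and 3 and CDL replicate 2. One of these controls read 1909, 1936 and 1910 in the first set and 1661, 1685 and 1642 in the second. Each set holds both media, so differences can be taken within a set, and these are given as set 1 and set 2 values for Nupr1 and Pax3 and for each called gene in which one was over 2 times the other. RDL replicate 1 also correlated least with its group mates (mean 0.978). Its actin signal was the most biased to the 3' end, with a 3'/5' ratio of 1.90 against 1.55 to 1.66 on the other 5 arrays.

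At day 6, 946 genes (7.62% of those tested) were called: 456 were higher in CDL (3.68%) and 490 were lower (3.95%) at an adjusted p under 0.05 in limma's moderated test with Benjamini-Hochberg adjustment. The 3 CDL arrays lay all above the 3 RDL arrays in 9.6% of genes and all below them in 10.3%. At least 2-fold differences were found for 73 higher genes (0.588%) and 105 lower genes (0.846%), and the median log2 difference over all genes was 0.00. Throughout, differences are CDL minus RDL on the log2(signal + 12.6) scale with the standard error (SE) of the fit and n = 3 arrays per group. This scale understates the change of dim genes. "Rose" and "fell" are used of genes past the threshold, and "higher" or "lower" then refers to CDL. With the control set as a block, an alternative chosen after seeing the data, 1247 genes were higher (10%) and 1107 lower (8.92%), and these held 456 of the 456 and 485 of the 490. With RDL replicate 1 left out, 647 were higher and 868 lower. Block counts are given beside a list where they moved its number of calls by over 1.5 times, and block differences beside a named gene whose call they change. For every list, the main counts compare with 3.68% and 3.95% of all genes, and the block counts with 10% and 8.92%. Fitting the 6 arrays alone, without the spread of the other 9, called 182 and 263.

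Groups that do not overlap were part of the rule that chose the 24 genes described next, so their separation is a description. The gene that rose most was Nupr1, a small nuclear protein induced by cell stress. Its signal was 72.7, 44.9 and 39.6 on the RDL arrays and 839, 446 and 722 on the CDL arrays. The lowest CDL array was several times brighter than the brightest RDL array, and the log2 difference was 3.38 ± 0.23 (adjusted p = 1.76e-07), with 3.21 and 3.06 in set 1 and set 2. Its difference ranged from 2.78 to 3.65 over the alternatives. Dll1, a Notch ligand of the presomitic mesoderm, gave 44.1, 105 and 85 on the RDL arrays and 299.5, 529 and 315 on the CDL arrays (2.14 ± 0.25, adjusted p = 4.28e-05). Aldh1a2, the enzyme that makes retinoic acid in the somites, gave 214, 338 and 299.8 on the RDL arrays and 1120.0, 1219 and 1022 on the CDL arrays (1.95 ± 0.16, adjusted p = 7.83e-07). Lmo2, a transcriptional cofactor of blood and endothelial progenitors, rose from 92.4, 79.4 and 84.5 to 418, 326 and 346 (1.93 ± 0.18, adjusted p = 3.85e-06). Klf4, a zinc finger factor of ES cells and of epithelia, rose from 91.4, 114 and 161 to 434, 544 and 488 (1.92 ± 0.25, adjusted p = 0.000122). Slc7a3, a cationic amino acid transporter, rose from 133, 97.8 and 109 to 525, 373 and 459 (1.88 ± 0.23, adjusted p = 4.99e-05).

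The other 6 of the 12 largest increases belonged to several unrelated functions. Cth, which makes cysteine from cystathionine, gave 208, 153 and 138 on the RDL arrays and 748, 486 and 637 on the CDL arrays (1.83 ± 0.20, adjusted p = 1.79e-05). Ptgds, a prostaglandin D synthase, gave 172, 122 and 107 on the RDL arrays and 675, 365 and 533 on the CDL arrays (1.86 ± 0.21, adjusted p = 2.46e-05). Ppp1r1a, an inhibitor of protein phosphatase 1, gave 215, 143 and 163 on the RDL arrays and 726, 406 and 694 on the CDL arrays (1.71 ± 0.18, adjusted p = 1.41e-05). In these 3 genes, as in Nupr1, Lmo2 and Slc7a3, CDL replicate 2 was the lowest CDL array and RDL replicate 1 the highest RDL array. Zic5, a zinc finger factor of the dorsal neural tube, gave 23.7, 48 and 39 on the RDL arrays and 145, 155 and 152 on the CDL arrays (1.75 ± 0.20, adjusted p = 3.33e-05). Tnfrsf19, a receptor of the TNF receptor family and a Wnt target, gave 141, 118 and 144 on the RDL arrays and 550.4, 494 and 401 on the CDL arrays (1.74 ± 0.12, adjusted p = 1.37e-07). Dleu7 read 12.1, 13.8 and 10.8 on the RDL arrays, near the constant of 12.6 that was added before the logarithm, and 62.6, 115 and 64.9 on the CDL arrays, so the size of its difference (1.87 ± 0.14, adjusted p = 3.98e-07) depends on that constant and ranged from 1.05 to 2.58 over its alternatives.

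The genes that fell most included the transcription factors Fli1, Otx2 and Prrx1. Asb4, an ankyrin-repeat protein with a SOCS box, gave 1371, 976 and 1121 on the RDL arrays and 115, 94.2 and 141 on the CDL arrays (-3.18 ± 0.15, adjusted p = 2.26e-09). Fli1, an ETS factor of blood and endothelium, gave 219, 281 and 269.9 on the RDL arrays and 25.6, 12.2 and 24.4 on the CDL arrays (-3.03 ± 0.13, adjusted p = 1.96e-09). Otx2, a homeobox factor of the epiblast and the anterior neural plate, gave 184, 176 and 216 on the RDL arrays and 15.9, 17.5 and 17.6 on the CDL arrays (-2.79 ± 0.24, adjusted p = 1.73e-06). The CDL signals of Fli1 and Otx2 lay near the added constant, and their differences ranged from -3.63 to -2.12 and from -3.42 to -1.85 over the alternatives. Tgfbi, a secreted matrix protein induced by TGF-beta, fell from 1751, 2884 and 3111 to 350.1, 505 and 396 (-2.57 ± 0.19, adjusted p = 2.98e-07). Epha3, an ephrin receptor, fell from 173, 136 and 115 to 15, 15.4 and 20.8 (-2.36 ± 0.11, adjusted p = 1.96e-09). Lum, the matrix proteoglycan lumican, fell from 269, 199 and 205 to 38.2, 26.3 and 51.7 (-2.22 ± 0.14, adjusted p = 9.92e-08).

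Among the other 6 of the 12 largest decreases, Dlk1, an imprinted transmembrane protein related to the Notch ligands, fell from 741, 1511 and 1476 to 216, 374 and 255 (-2.06 ± 0.26, adjusted p = 8.15e-05). RDL replicate 1 was the lowest RDL array for this gene. Prrx1, a homeobox factor of limb and craniofacial mesenchyme, fell from 193, 258 and 269 to 47.8, 50.1 and 48.3 (-2.03 ± 0.12, adjusted p = 3.44e-08). Trh, the precursor of thyrotropin-releasing hormone, fell from 632, 552 and 654 to 152, 118 and 148 (-2.05 ± 0.20, adjusted p = 5.02e-06). Mc2r, the receptor for adrenocorticotropic hormone, fell from 228, 254 and 239 to 49.5, 35.8 and 47.2 (-2.16 ± 0.10, adjusted p = 3.49e-09). Spink1, a secreted protease inhibitor, fell from 359.8, 204 and 279 to 72.7, 35.4 and 67.1 (-2.06 ± 0.19, adjusted p = 3.46e-06). Mir99ahg, the long noncoding host transcript of the miR-99a cluster, fell from 78.6, 141 and 121 to 13.3, 10.3 and 19 (-2.22 ± 0.14, adjusted p = 1.11e-07). The 24 genes had 16 other probe sets, of which 15 were called in the same direction, 0 in the other and 1 in neither.

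**Figure D1:**
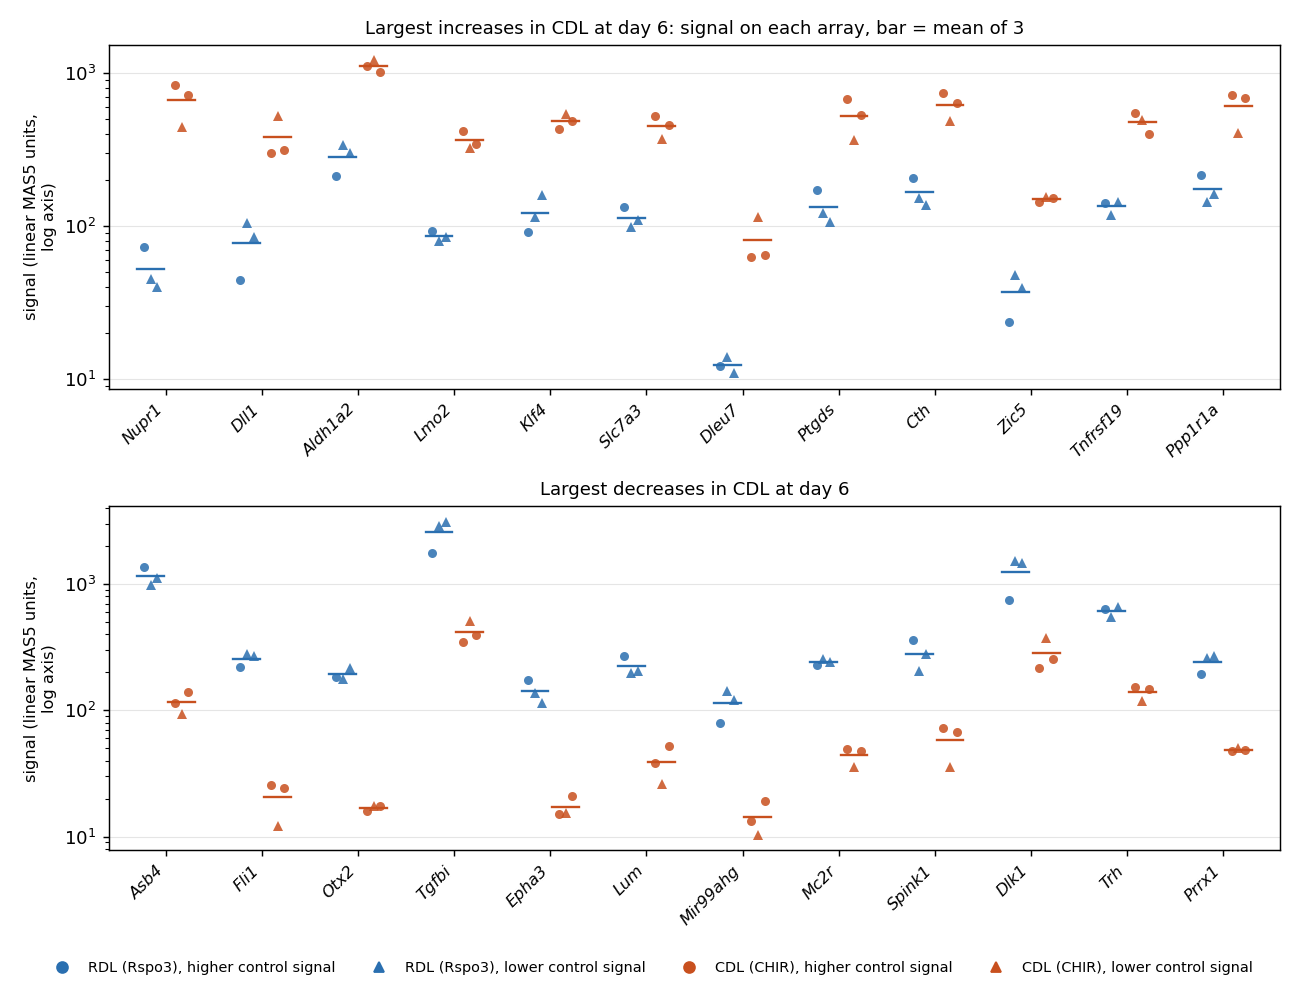
Signal (log axis) of the 12 genes that rose most (top) and the 12 that fell most (bottom) on each day 6 array, RDL in blue and CDL in orange, with a bar at each group's mean of 3. Circles mark the arrays of higher and triangles those of lower spiked-in control signal, and the 24 genes were chosen for groups that do not overlap. CDL replicate 2 is the lowest CDL array in Nupr1, Lmo2, Slc7a3, Ptgds, Cth and Ppp1r1a.

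Among 21 tested Wnt targets and feedback genes, 4 rose and 2 fell, with a median difference of 0.27, against 3.68% and 3.95% of all genes. With the control set as a block 10 rose and 2 fell, against 10% and 8.92% of all genes. Besides Tnfrsf19, Nkd1, an inhibitor of the pathway that the pathway itself induces, gave 40.2, 93.1 and 81 on the RDL arrays and 187, 279.9 and 180.3 on the CDL arrays (1.48 ± 0.23, adjusted p = 0.000646). Axin2, a scaffold of the beta-catenin destruction complex and the best known feedback target, gave 98.9, 124 and 112 on the RDL arrays and 191, 278 and 168 on the CDL arrays (0.83 ± 0.23, adjusted p = 0.0331). Lef1, a transcriptional partner of beta-catenin, gave 122, 241 and 207 on the RDL arrays and 245, 389.8 and 303 on the CDL arrays (0.71 ± 0.21, adjusted p = 0.0488). In Axin2 and Lef1 the CDL arrays lay above the RDL arrays by a small margin. The Axin2 call was lost under 7 of 20 alternatives, among them without RDL replicate 1, 2 or 3 or CDL replicate 1 or 2 (adjusted p 0.0541 to 0.121). The Lef1 call was lost under 9 of 20, among them without RDL replicate 1 or 3 or CDL replicate 2 or 3 (adjusted p 0.0661 to 0.159). Dkk1, a secreted antagonist that blocks the Wnt coreceptors and is itself a target, went the other way at 191, 269.9 and 242 on the RDL arrays and 62.9, 50.6 and 55 on the CDL arrays (-1.84 ± 0.24, adjusted p = 0.000124). Its lowest RDL array was brighter than any CDL array. Lgr5, an R-spondin receptor, read 38.5, 32.1 and 31 on the RDL arrays and 22.3, 24.8 and 20.6 on the CDL arrays (-0.40 ± 0.08, adjusted p = 0.00474), with -0.58 and -0.24 in set 1 and set 2, a call lost without the filter on dim genes. Ctnnb1, which encodes beta-catenin, differed by -0.07 ± 0.06 (adjusted p = 0.609), Gsk3b by 0.05 ± 0.18 (0.932) and Ccnd1 by 0.39 ± 0.12 (0.0710), none past the threshold. With the control set as a block Ccnd1 (0.49 ± 0.10, adjusted p = 0.00316) and Gsk3b (0.28 ± 0.07, adjusted p = 0.0131) passed it.

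Most called genes of the extracellular side of the pathway were lower, and Rspo3 rose. Of 9 tested secreted antagonists 0 rose and 3 fell (median -0.18): Dkk1, Sfrp1 and Cer1. Sfrp1, a soluble Frizzled-related protein, fell from 450.1, 468 and 509 to 131, 163 and 167 (-1.56 ± 0.14, adjusted p = 2.37e-06). Cer1, an antagonist of Wnt, Nodal and BMP, fell from 219, 206 and 216 to 117, 88.9 and 74.4 (-1.11 ± 0.14, adjusted p = 7.65e-05). Of 13 tested Frizzled and Ror receptors 0 rose and 4 fell (median -0.14). Fzd5 fell from 81.8, 169.7 and 145 to 28.7, 35.5 and 33.2 (-1.63 ± 0.35, adjusted p = 0.00713). Fzd4 fell from 148, 165 and 183 to 70.2, 61.8 and 74.4 (-1.13 ± 0.10, adjusted p = 3.46e-06). Ror1, a receptor that binds Wnt5a, fell from 42, 90.6 and 93.3 to 23.7, 30.7 and 22.3 (-1.15 ± 0.19, adjusted p = 0.00100), with -0.62 and -1.27 in set 1 and set 2. These 3 receptors showed no overlap of the groups. Fzd8 fell by less (-0.57 ± 0.15, adjusted p = 0.0343), a call lost without RDL replicate 2 or 3 or CDL replicate 1 or 3 (adjusted p 0.129 to 0.154). Fzd7, Fzd2 and Fzd1 differed by 0.38 ± 0.31, -0.21 ± 0.18 and -0.43 ± 0.22, none past the threshold. Of 14 tested Wnt ligands only Wnt5a, a ligand of the posterior mesoderm, was called (-0.69 ± 0.19, adjusted p = 0.0389), with -0.27 and -0.72 in set 1 and set 2. Its signals of 92.4, 166 and 172 on the RDL arrays and 74.9, 97.3 and 73.5 on the CDL arrays overlapped, and the call was lost under 7 of 20 alternatives, among them without RDL replicate 2 or 3 or CDL replicate 1 or 3 (adjusted p 0.123 to 0.168). Rspo3 transcript itself rose, at 101, 78.7 and 99.6 on the RDL arrays and 163, 111 and 167 on the CDL arrays (0.58 ± 0.14, adjusted p = 0.0146), with 0.65 and 0.29 in set 1 and set 2. Its protein was a supplement of RDL and not of CDL. The call was lost without RDL replicate 2 or CDL replicate 1 or 3 (adjusted p 0.0731 to 0.0786). Of the receptors and ligases through which R-spondins act, Lgr4 differed by -0.17 ± 0.18, Lrp6 by -0.24 ± 0.13 and Znrf3 by 0.29 ± 0.25, none past the threshold.

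Several genes of the Notch pathway were higher in CDL. Of 16 tested ligands, receptors and modulators 4 rose and 0 fell (median 0.14), against 3.68% and 3.95% of all genes. With the control set as a block 7 rose and 0 fell, against 10% and 8.92% of all genes. Of 7 tested Hes and Hey repressors 3 rose and 0 fell (median 0.64). Notch1, a receptor, gave 254, 461 and 392 on the RDL arrays and 727, 1231 and 599.8 on the CDL arrays (1.15 ± 0.23, adjusted p = 0.00406). Nrarp, which Notch induces and which restrains it, gave 63.7, 83.9 and 78.3 on the RDL arrays and 169, 285 and 153 on the CDL arrays (1.25 ± 0.25, adjusted p = 0.00474). Dll3, a ligand-like protein of the segmentation clock, gave 45.4, 76.9 and 74 on the RDL arrays and 125, 154 and 89.1 on the CDL arrays (0.79 ± 0.17, adjusted p = 0.00885). On all 3 genes CDL replicate 2 was the brightest array and RDL replicate 1 the dimmest. Hey1, a repressor induced by Notch, gave 116, 114 and 126 on the RDL arrays and 255, 356 and 300.4 on the CDL arrays (1.26 ± 0.19, adjusted p = 0.000511), and its groups did not overlap. Heyl rose from 52.5, 65.4 and 53.7 to 90.0, 137 and 75.5 (0.67 ± 0.16, adjusted p = 0.0156). Hey2 rose from 37.2, 19.9 and 34 to 55.5, 46.3 and 58.6 (0.64 ± 0.14, adjusted p = 0.00977). Hes1 (0.68 ± 0.29, adjusted p = 0.208) and Hes7, the oscillating repressor of the clock (0.21 ± 0.17, adjusted p = 0.589), did not pass the threshold. Nor did the receptors Notch2 (0.32 ± 0.29, adjusted p = 0.635) and Notch3 (0.05 ± 0.21, adjusted p = 0.945), although Notch2 passed it with that block (0.66 ± 0.15, adjusted p = 0.00646). The calls of Notch1, Dll3, Hey2 and Heyl were lost with the 6 arrays fitted alone, and that of Heyl also without RDL replicate 3 (adjusted p 0.0619).

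The sort reporter's own gene, Pax3, gave 252, 366 and 292 on the RDL arrays and 515, 618 and 435 on the CDL arrays (0.76 ± 0.15, adjusted p = 0.00323), with 0.87 and 0.89 in set 1 and set 2. All 3 CDL arrays were above all 3 RDL arrays, and both groups were selected for GFP made under this gene. The call was lost with the 6 arrays fitted alone (adjusted p = 0.0662). Of 17 tested somite and anterior presomitic genes 6 rose and 2 fell (median 0.15). Tcf15, a bHLH factor needed for somite epithelia, gave 256, 466 and 411 on the RDL arrays and 1001, 1408 and 834 on the CDL arrays (1.5 ± 0.22, adjusted p = 0.000312). Uncx, a homeobox factor of the posterior somite, gave 175, 543 and 465 on the RDL arrays and 968, 1748 and 769 on the CDL arrays (1.59 ± 0.33, adjusted p = 0.00597). Efnb2, an ephrin of the posterior somite and its boundary, gave 263, 643 and 545 on the RDL arrays and 847, 1299.8 and 765 on the CDL arrays (1.04 ± 0.26, adjusted p = 0.0226). For these 3 genes RDL replicate 1 was well below its mates and CDL replicate 2 above its own, so the spread within groups was wide. The calls of Uncx and Efnb2 were lost with the 6 arrays fitted alone, and that of Efnb2 also without CDL replicate 2 (adjusted p 0.0908). Dmrt2, a dermomyotome factor, gave overlapping signals of 85.8, 203 and 119 on the RDL arrays and 251, 307 and 193 on the CDL arrays (0.88 ± 0.26, adjusted p = 0.0494). Its call was lost under 10 of 20 alternatives, among them without RDL replicate 1 or 3 or CDL replicate 1 or 2 (adjusted p 0.12 to 0.15). Epha4, an ephrin receptor at somite boundaries, went down, from 229, 274 and 258 to 80.5, 114 and 119.8 (-1.2 ± 0.13, adjusted p = 1.87e-05). Meox1 (0.15 ± 0.18), Foxc1 (-0.07 ± 0.28) and Foxc2 (0.67 ± 0.28), 3 other somite factors, did not pass the threshold (adjusted p = 0.731, 0.943 and 0.19). Foxc2 passed it with the control set as a block (0.93 ± 0.22, adjusted p = 0.00797). Meox1 read 1708, 2047 and 1725 on the RDL arrays and 2057, 2538 and 1595 on the CDL arrays, so that both groups carried this marker of paraxial mesoderm.

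Members of the dermomyotome and muscle progenitor list went both ways, 3 of 12 up and 4 down (median -0.14). Myf5, the first muscle regulatory factor to come on, gave 32, 35.4 and 32.4 on the RDL arrays and 91.1, 55.4 and 77.1 on the CDL arrays (0.91 ± 0.14, adjusted p = 0.000631), with 1.11 and 0.55 in set 1 and set 2. Sim1, a factor of the lateral dermomyotome, fell from 401, 409.5 and 355 to 189, 168 and 189 (-1.04 ± 0.15, adjusted p = 0.000264). Alx1, a homeobox factor of head mesenchyme, fell from 61.7, 45.6 and 51 to 16.2, 10.9 and 14.6 (-1.3 ± 0.09, adjusted p = 2.63e-07). Mef2c, a muscle and heart factor, fell from 60.8, 56.7 and 58.3 to 29.8, 30.6 and 29 (-0.75 ± 0.09, adjusted p = 8.76e-05). In the posterior presomitic list 3 of 13 rose and 1 fell: Dll1, Dll3 and Rspo3 against Wnt5a. Msgn1, the master factor of the posterior presomitic mesoderm, read 29, 31.1 and 25.9 on the RDL arrays and 44.3, 43.9 and 43.6 on the CDL arrays, without overlap and without passing the threshold (0.46 ± 0.14, adjusted p = 0.0677), which it passed narrowly with the control set as a block (0.45 ± 0.15, adjusted p = 0.0490). Of 11 caudal and primitive streak genes 1 rose and 2 fell, and 3 and 2 with that block. Fst, which binds activin, rose from 441, 630.2 and 616 to 1582, 1354 and 1356 (1.34 ± 0.14, adjusted p = 8.90e-06). Eomes, a T-box factor of the streak, fell from 59.2, 123 and 124 to 16, 22.6 and 17.1 (-1.83 ± 0.25, adjusted p = 0.000207). Lhx1, a LIM factor of streak and kidney precursors, fell from 122, 295 and 259.6 to 52.5, 43.1 and 50.3 (-1.87 ± 0.22, adjusted p = 4.30e-05), with -1.07 and -2.38 in set 1 and set 2. Of 8 sclerotome and tendon genes Uncx rose and Sox9, the cartilage factor, fell from 162, 378 and 246 to 78.1, 104 and 106 (-1.27 ± 0.22, adjusted p = 0.00163), while 5 rose and 1 fell with the control set as a block.

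Of 13 tested genes of the retinoic acid pathway, 4 rose and 2 fell (median 0.09). Besides the synthetic enzyme Aldh1a2, Crabp1, a cytoplasmic retinoic acid binding protein, rose from 589, 473 and 510.2 to 1639, 1116 and 1419 (1.38 ± 0.14, adjusted p = 1.26e-05). Stra6, the receptor that takes up retinol, rose from 101, 148 and 143 to 205, 273 and 202 (0.74 ± 0.18, adjusted p = 0.0190). Dhrs3, which turns retinal back to retinol, rose from 71.1, 75 and 70.1 to 117, 131 and 102 (0.60 ± 0.11, adjusted p = 0.00311). Cyp26a1, the enzyme that degrades retinoic acid in the tail bud, fell from 548, 742 and 800.4 to 185, 208 and 208 (-1.72 ± 0.14, adjusted p = 7.05e-07), with all RDL arrays well above all CDL arrays. The related enzyme Cyp26b1 read 41.5, 42.2 and 41.1 on the RDL arrays and 33.1, 34.8 and 35.7 on the CDL arrays and did not pass the threshold (-0.20 ± 0.09, adjusted p = 0.218). Nor did Rdh10, which oxidises retinol to retinal ahead of Aldh1a2, at overlapping signals of 204, 259 and 295 on the RDL arrays and 247, 326 and 246 on the CDL arrays (0.11 ± 0.16, adjusted p = 0.804). Crabp2, which carries retinoic acid to its nuclear receptors, fell from 1443, 1027 and 958 to 575, 511 and 741 (-0.89 ± 0.15, adjusted p = 0.00133). The receptor genes Rarb, Rarg and Rxra differed by -0.44 ± 0.18, 0.15 ± 0.10 and -0.04 ± 0.10, none past the threshold. The Stra6 call was lost without RDL replicate 1 or CDL replicate 2 (adjusted p 0.0522 to 0.0767).

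In the Hedgehog pathway 3 of 10 tested genes rose and 1 fell (median 0.00). The ligand Shh, which notochord and floor plate secrete, gave 47, 64.7 and 64.9 on the RDL arrays and 136, 367 and 207 on the CDL arrays (1.71 ± 0.24, adjusted p = 0.000207), and CDL replicate 2 was the highest array. Its receptor and target Ptch1 gave 712, 1189.6 and 1311 on the RDL arrays and 2031, 2976 and 2379 on the CDL arrays (1.22 ± 0.20, adjusted p = 0.00109). The target Gli1 rose from 82.8, 118 and 140.3 to 160.5, 235 and 211 (0.78 ± 0.17, adjusted p = 0.00719), a call lost with the 6 arrays fitted alone. Hhip, a decoy receptor of the ligand, fell from 57.1, 51 and 65.6 to 23.7, 25.6 and 36.5 (-0.78 ± 0.11, adjusted p = 0.000310). Smo, Gli2 and Gli3 differed by -0.19 ± 0.19, 0.14 ± 0.30 and -0.30 ± 0.21, none past the threshold. In the notochord marker list Shh was the 1 called of 3 tested, and Foxa2, a defining notochord and floor plate factor, read 44.9, 50.5 and 75.3 on the RDL arrays and 44.9, 48.7 and 41.1 on the CDL arrays (-0.25 ± 0.13, adjusted p = 0.305). Chrd, the other tested member, read 50.4, 39.8 and 48.2 on the RDL arrays and 54.4, 65.1 and 54.4 on the CDL arrays. Its groups did not overlap, and it did not pass the threshold (0.27 ± 0.099, adjusted p = 0.133). Foxj1, left out as dim, also lay higher on every CDL array than on every RDL array. The other 2 of the 6 listed genes had no named probe set. The summed signal of the notochord list without Shh was 110.4 to 142 in RDL and 117 to 137 in CDL, which overlap. These sums include Foxa2, which was brightest on RDL replicate 3.

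**Figure D2:**
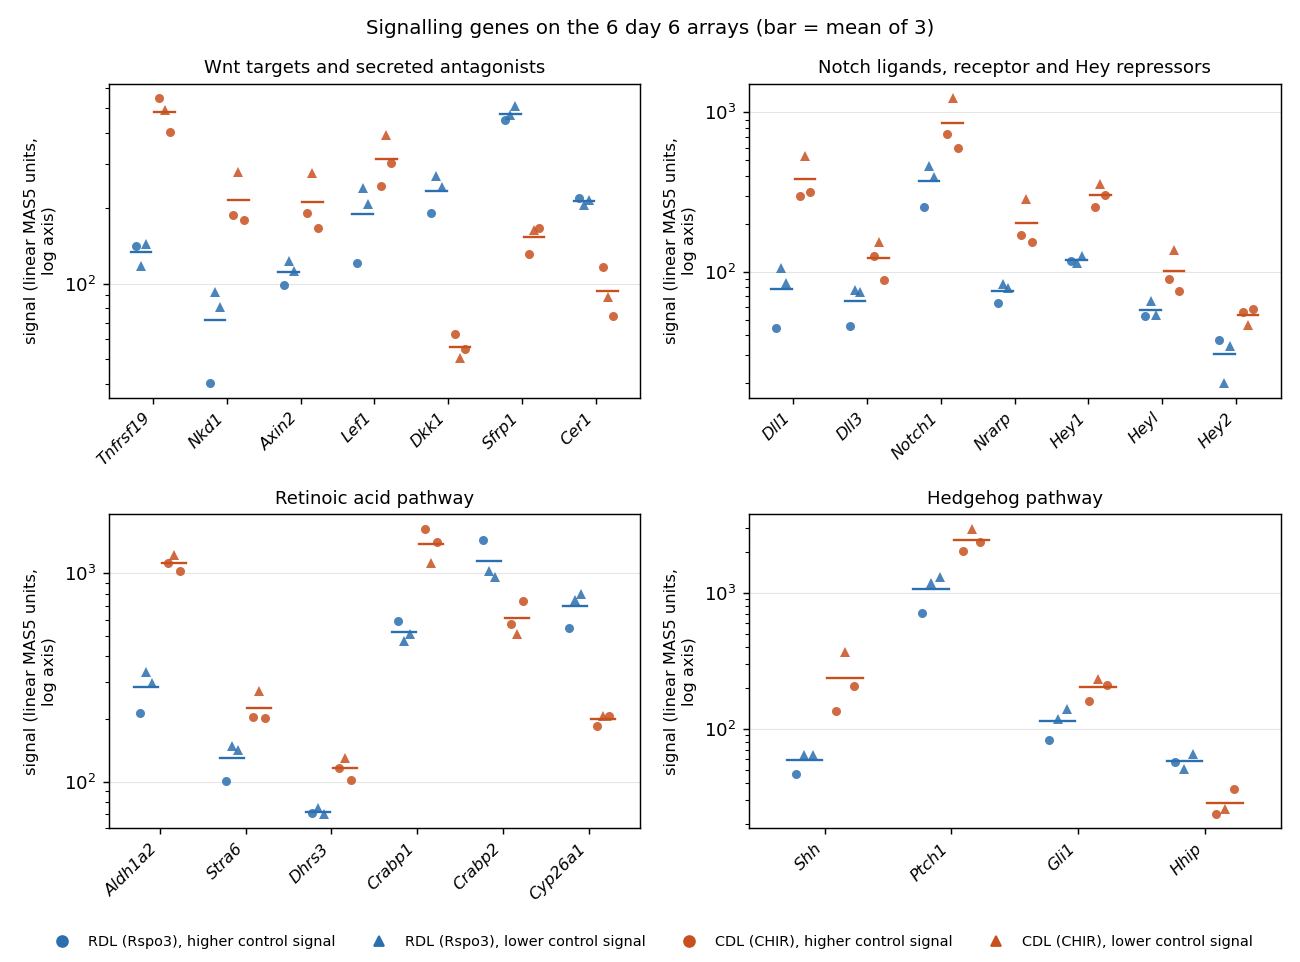
Signal (log axis) on each day 6 array of the genes described for the Wnt, Notch, retinoic acid and Hedgehog pathways, RDL in blue and CDL in orange, with bars at group means of 3 and symbols for the set of spiked-in control signal as in the legend. Aldh1a2 and Cyp26a1, which make and degrade retinoic acid, lie apart in opposite directions, and the RDL and CDL arrays of Lef1 and Dll3 nearly touch.

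Of 14 tested FGF ligands and receptors 1 rose and 1 fell, too few to set the list apart from the 3.68% and 3.95% of all genes. Fgf18, a ligand of somites and cartilage, rose from 29.2, 44.9 and 24.7 to 96.5, 122 and 69.4 (1.25 ± 0.16, adjusted p = 9.45e-05). Fgf5, a ligand of the epiblast, fell from 51.8, 49.7 and 60.7 to 13.4, 9.54 and 10.0 (-1.5 ± 0.09, adjusted p = 3.70e-08), and its CDL signals lay near the added constant. Fgfr1 differed by 0.00 ± 0.20. Of 12 tested ERK feedback and ETS targets 1 rose, Etv4 (0.54 ± 0.12, adjusted p = 0.0135), and 5 with the control set as a block. This call was lost without RDL replicate 2 or CDL replicate 2 (adjusted p 0.0535 to 0.0566). Of 16 immediate early genes 3 rose and 0 fell (median 0.34). Fosb, a subunit of AP-1, gave 189, 129 and 244 on the RDL arrays and 437, 361 and 413 on the CDL arrays (1.1 ± 0.22, adjusted p = 0.00474). Fos, another subunit, gave 2383, 2699 and 3851 on the RDL arrays and 4904, 5081 and 4859 on the CDL arrays (0.76 ± 0.15, adjusted p = 0.00468). Btg2, which slows the cell cycle, rose by less (0.82 ± 0.21, adjusted p = 0.0254), a call lost without RDL replicate 2 or CDL replicate 3 (adjusted p 0.122 to 0.125). In the BMP list 1 of 16 rose, Fst, and 5 fell (median -0.06). The ligand Bmp2 fell from 68.9, 141 and 126 to 59, 57.1 and 53.8 (-0.80 ± 0.18, adjusted p = 0.0111), with -0.24 and -1.07 in set 1 and set 2, a call lost without RDL replicate 2 or 3 (adjusted p 0.0597 to 0.0602). The ligand Bmp4 fell from 144, 171 and 176 to 107, 127 and 106 (-0.48 ± 0.13, adjusted p = 0.0364), a call lost without RDL replicate 2 or 3 or CDL replicate 1 or 3 (adjusted p 0.116 to 0.133). Id1, the usual readout of BMP signalling, differed by -0.04 ± 0.47 (adjusted p = 0.983), an SE too wide to show that it was unchanged. Among the other targets Msx1 fell, from 44.1, 61.6 and 58.4 to 30.8, 35.0 and 26.4. Smad6 and Id2 also lay lower on every CDL array than on every RDL array. The groups overlapped in Id3, Id4, Smad7, Msx2 and Bambi.

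Several Hox genes of middle groups and several cofactors of Hox proteins were lower in CDL. Of 12 tested genes of groups 5 to 9 0 rose and 4 fell (median -0.10). Hoxc8 fell from 61.9, 106 and 104 to 30.1, 36.6 and 46.8 (-1.02 ± 0.21, adjusted p = 0.00555), with -0.57 and -1.26 in set 1 and set 2. Hoxc5 fell from 84.4, 93.3 and 94.8 to 47.9, 46.2 and 58.8 (-0.71 ± 0.11, adjusted p = 0.000677). Neither gene's groups overlapped. Hoxc9 fell by less (-0.47 ± 0.13, adjusted p = 0.0336), a call lost without RDL replicate 2 or 3 or CDL replicate 1 or 2 (adjusted p 0.0690 to 0.108). Hoxa9 (-0.63 ± 0.18, adjusted p = 0.0493) lost its call under 12 of 20 alternatives, among them without RDL replicate 2 or 3 or CDL replicate 1 or 2 (adjusted p 0.106 to 0.209). Its difference was -0.02 and -0.97 in set 1 and set 2, and it missed the threshold with the control set as a block (adjusted p = 0.0529). Of 10 tested genes of groups 1 to 4 1 rose, Hoxb1, at 45.8, 75 and 63.3 on the RDL arrays and 213, 278 and 159 on the CDL arrays (1.62 ± 0.18, adjusted p = 1.88e-05), and 0 fell. Of 12 listed genes of groups 10 to 13, 1 was tested, 9 were dim and 2 had no named probe set. Of 9 tested cofactors and COUP factors 0 rose and 5 fell (median -0.40). Nr2f1, an orphan nuclear receptor of the COUP family, fell from 1008, 1873 and 1794 to 474, 583 and 599.7 (-1.43 ± 0.18, adjusted p = 8.84e-05). The homeobox cofactor Meis1 fell from 654, 774 and 838 to 379.7, 452 and 382 (-0.88 ± 0.16, adjusted p = 0.00199). Meis2 fell from 1618, 2306 and 2238 to 1041, 1345 and 1002 (-0.85 ± 0.14, adjusted p = 0.000815). The related Pknox1 fell by less (-0.57 ± 0.11, adjusted p = 0.00299), a call lost with the 6 arrays fitted alone. Pbx3 (-0.40 ± 0.11, adjusted p = 0.0392) lost its call under 8 of 20 alternatives, among them without RDL replicate 1 or 2 or CDL replicate 1, 2 or 3 (adjusted p 0.0595 to 0.127).

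The list with the largest share of members called was that of amino acid supply and the integrated stress response. In this program the factor ATF4 induces genes for amino acid synthesis and transport. The lists were chosen with earlier results of these data known, so this rank depends in part on that choice. Other lists came close. Endothelium and blood had 1 higher and 5 lower of 10 tested, dermomyotome and muscle progenitors 3 and 4 of 12, and Hox cofactors and COUP factors 0 and 5 of 9. Of 24 tested members of the amino acid list 14 rose and 1 fell, against 3.68% and 3.95% of all genes. Their median difference was 0.56 against 0.00 over all genes. Nupr1 and Cth, given above, were the largest. Chac1, which degrades glutathione, gave 81.9, 72.4 and 119 on the RDL arrays and 209, 223 and 312 on the CDL arrays (1.33 ± 0.21, adjusted p = 0.000628). Pck2, a mitochondrial enzyme of gluconeogenesis, gave 170.1, 219 and 208 on the RDL arrays and 392, 419 and 326 on the CDL arrays (0.89 ± 0.12, adjusted p = 0.000187). Atf5, a factor related to ATF4, gave 63.4, 122 and 110.1 on the RDL arrays and 143, 258 and 184 on the CDL arrays (0.91 ± 0.23, adjusted p = 0.0211), and its call was lost without RDL replicate 1 or CDL replicate 2 or 3 (adjusted p 0.0565 to 0.0866). The transcript of Atf4 itself, whose product is controlled mainly in translation, differed by 0.20 ± 0.09 (adjusted p = 0.241). The transporter subunits Slc7a5 and Slc3a2 differed by 0.83 ± 0.25 (0.0563) and 0.37 ± 0.13 (0.101). With the control set as a block all 3 passed the threshold: Atf4 (0.26 ± 0.07, adjusted p = 0.0239), Slc7a5 (1.13 ± 0.13, adjusted p = 1.78e-05) and Slc3a2 (0.50 ± 0.09, adjusted p = 0.00107). The member that fell, Ddr2 (189, 212 and 217 against 56.3, 65.1 and 60.0, -1.58 ± 0.12, adjusted p = 3.04e-07), is a collagen receptor kinase and not a gene of amino acid supply.

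ATF4 binds a short element, the CARE. Its letters were searched as TGATGNAA on both strands in the 250 bases before the start of each gene, in RefSeq's promoters of build GRCm38.p6. Of the 13 members that rose and have an entry, 5 held a match: Asns, Chac1, Vldlr, Pck2 and Nupr1, against 3.91% of 27025 genes. Vldlr has more than 1 listed start and the match lay before 1 of them. The 250 bases of 3 of these genes are shown 5′ to 3′ on the gene's own strand, with the match in capitals, since their differences are described above. In Nupr1 (chr7:126625471-126625720, minus strand) the match began 110 bases before the start. In Chac1 (chr2:119350992-119351241, plus strand) it began 193 bases before it, and in Pck2 (chr14:55540016-55540265, plus strand) 103 bases before it. A match says only that these letters are present. The list was drawn up for a program that ATF4 induces, so a share above that of all genes may follow from its choice. Members that did not rise were not searched for comparison, so the matches cannot be tied to the rise.
Nupr1: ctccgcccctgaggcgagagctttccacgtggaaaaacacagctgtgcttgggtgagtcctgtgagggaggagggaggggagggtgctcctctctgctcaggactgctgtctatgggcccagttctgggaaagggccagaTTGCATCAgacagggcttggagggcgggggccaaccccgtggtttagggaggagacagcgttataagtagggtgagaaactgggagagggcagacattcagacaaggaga
Chac1: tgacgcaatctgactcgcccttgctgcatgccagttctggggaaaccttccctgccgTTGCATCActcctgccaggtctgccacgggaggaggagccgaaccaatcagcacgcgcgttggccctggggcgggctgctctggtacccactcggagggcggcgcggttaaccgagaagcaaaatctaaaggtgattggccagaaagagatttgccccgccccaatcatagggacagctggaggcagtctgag
Pck2: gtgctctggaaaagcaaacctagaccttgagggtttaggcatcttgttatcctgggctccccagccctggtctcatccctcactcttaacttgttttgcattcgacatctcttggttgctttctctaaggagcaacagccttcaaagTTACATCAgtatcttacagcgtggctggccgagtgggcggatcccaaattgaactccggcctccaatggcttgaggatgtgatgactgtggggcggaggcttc

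Metallothioneins, small proteins that bind zinc and copper, also share a known promoter element. Of 6 tested genes of metallothioneins and zinc handling 2 rose and 0 fell (median 0.14). Mt1 gave 461, 362 and 407 on the RDL arrays and 1101, 1006 and 1308 on the CDL arrays (1.44 ± 0.20, adjusted p = 0.000218). Mt2 gave 304, 232 and 251 on the RDL arrays and 511, 704 and 753 on the CDL arrays (1.27 ± 0.19, adjusted p = 0.000426). In both genes every CDL array was above every RDL array. The brain form Mt3 (0.06 ± 0.08), the zinc-sensing factor Mtf1 (0.21 ± 0.14) and the zinc exporter Slc30a1 (0.01 ± 0.32) did not pass the threshold (adjusted p = 0.772, 0.456 and 0.997). Mtf1 binds metal response elements, searched as TGCACNC or TGCGCNC on both strands of the same 250 bases. Mt1 held 1 match (chr8:94178839-94179088, plus strand) and Mt2 held 3 (chr8:94172368-94172617, plus strand), against a share of 23.8% of genes with at least 1, so a match alone is common. They are printed with the matches in capitals. Bases past each listed start were not searched. The counts therefore hold only for the printed stretch and do not compare the whole promoters of the 2 genes. The first Mt2 match began 223 bases before the start, and the Mt1 match 23 bases before it.
Mt1: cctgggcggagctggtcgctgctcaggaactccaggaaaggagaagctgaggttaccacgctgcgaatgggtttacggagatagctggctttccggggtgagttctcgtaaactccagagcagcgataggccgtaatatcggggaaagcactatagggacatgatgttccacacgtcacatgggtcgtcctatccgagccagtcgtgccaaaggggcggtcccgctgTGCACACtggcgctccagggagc
Mt2: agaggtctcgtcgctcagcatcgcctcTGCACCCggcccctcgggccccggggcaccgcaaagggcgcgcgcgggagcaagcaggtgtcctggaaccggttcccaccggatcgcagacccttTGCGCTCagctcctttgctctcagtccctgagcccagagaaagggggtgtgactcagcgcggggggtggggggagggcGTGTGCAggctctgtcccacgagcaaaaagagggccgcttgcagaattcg

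Several matrix and mesenchymal genes fell. Of 25 tested collagens and matrix genes 0 rose and 9 fell (median -0.32), Lum among them. With the control set as a block 7 rose and 10 fell, so the absence of increases depended on the fit. Col9a1, a cartilage collagen, fell from 1113, 968 and 1109 to 286, 220.5 and 324 (-1.91 ± 0.13, adjusted p = 1.99e-07). Sparc, a collagen-binding glycoprotein, fell from 817, 716 and 802 to 410.4, 396 and 344 (-1.0 ± 0.09, adjusted p = 3.46e-06). Postn, periostin, fell from 52.7, 34 and 47.5 to 20.6, 23.7 and 22.4 (-0.70 ± 0.11, adjusted p = 0.000412). Col2a1, the main cartilage collagen, fell from 237, 398 and 436 to 193, 207 and 201 (-0.75 ± 0.17, adjusted p = 0.0111), with -0.25 and -0.97 in set 1 and set 2, a call lost without RDL replicate 2 or 3 (adjusted p 0.0562 to 0.0626). Col1a2 (-0.36 ± 0.27, adjusted p = 0.538), Col4a1 (0.16 ± 0.24, adjusted p = 0.81) and Lamb1 (0.47 ± 0.15, adjusted p = 0.0643) did not pass the threshold. With the block Col4a1 (0.45 ± 0.11, adjusted p = 0.00956) and Lamb1 (0.62 ± 0.10, adjusted p = 0.000554) rose. Of 15 cadherins and mesenchymal factors 0 rose and 2 fell. Snai2, a repressor of epithelial genes, fell from 725, 682 and 760.0 to 195, 189.6 and 216 (-1.79 ± 0.15, adjusted p = 8.39e-07). Vim, the mesenchymal filament protein, fell by less (-0.37 ± 0.10, adjusted p = 0.0289), a call lost without RDL replicate 1 or 3 or CDL replicate 2 or 3 (adjusted p 0.0591 to 0.0961). Cdh2 and Fn1 differed by -0.52 ± 0.16 and 0.24 ± 0.21, neither past the threshold, and Fn1 passed it with the block (0.51 ± 0.10, adjusted p = 0.00196). Of 16 actin and contractile genes 1 rose and 3 fell (1 and 7 with the block), with Myl7, the atrial myosin light chain, at 72, 42.1 and 51.4 on the RDL arrays and 16.4, 15.3 and 16.1 on the CDL arrays (-1.22 ± 0.15, adjusted p = 8.69e-05).

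Of 21 tested imprinted genes 0 rose and 6 fell (median -0.32), and 3 rose and 8 fell with the control set as a block. Besides Dlk1, the paternally expressed zinc finger gene Peg3 fell from 6110.2, 7646 and 7312 to 3885, 4561 and 3682 (-0.79 ± 0.09, adjusted p = 4.73e-05). Ndn, a paternally expressed MAGE family gene, fell from 2225, 2382 and 2351 to 1338, 1603 and 1483 (-0.65 ± 0.09, adjusted p = 0.000288). Mest fell by less (-0.43 ± 0.12, adjusted p = 0.0295), a call lost without RDL replicate 2 or 3 or CDL replicate 1 or 3 (adjusted p 0.0893 to 0.122). Sgce also fell by less (-0.49 ± 0.12, adjusted p = 0.0161), a call lost without CDL replicate 2 or 3 (adjusted p 0.0563 to 0.0591). Igf2 (-0.22 ± 0.13, adjusted p = 0.405) and the maternally expressed RNA Meg3 (-0.73 ± 0.24, adjusted p = 0.0831) did not pass the threshold. In the IGF list 0 of 10 rose and 1 fell, the growth factor Igf1, at 129, 86.7 and 98.3 on the RDL arrays and 33.5, 32.1 and 37.2 on the CDL arrays (-1.31 ± 0.10, adjusted p = 6.60e-07), and 2 rose and 1 fell with that block. Of 16 Eph receptors and ephrins 2 rose, Efnb2 and Epha7, and 2 fell, Epha3 and Epha4. Epha7 gave 198, 166 and 159 on the RDL arrays and 364, 308 and 367 on the CDL arrays (0.94 ± 0.12, adjusted p = 9.45e-05).

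Some proliferation genes fell by small amounts: of 30 tested genes of replication and mitosis 0 rose and 7 fell (median -0.24), and 0 rose and 16 fell with the control set as a block. Mki67, the proliferation marker, gave 2718, 2895 and 2722 on the RDL arrays and 1561, 1978 and 1477 on the CDL arrays (-0.74 ± 0.10, adjusted p = 0.000140). The checkpoint kinase Bub1b gave 1049, 1011 and 957 on the RDL arrays and 646, 733 and 664 on the CDL arrays (-0.55 ± 0.09, adjusted p = 0.00125). Cdc20, an activator of the anaphase-promoting complex, fell too (-0.59 ± 0.12, adjusted p = 0.00584, with -0.29 and -0.61 in set 1 and set 2), as did the cyclin Ccnb2 (-0.52 ± 0.10, adjusted p = 0.00381). Both calls were lost with the 6 arrays fitted alone. The replication genes Pcna, Mcm7 and Mcm5 differed by 0.05 ± 0.05, -0.08 ± 0.04 and -0.23 ± 0.07, none past the threshold, although Mcm5 passed it with that block (-0.20 ± 0.06, adjusted p = 0.0345). Of 18 genes of glycolysis 2 rose and 5 fell (median -0.28). Lactate dehydrogenase, Ldha, gave 4522, 3827 and 3754 on the RDL arrays and 3202, 2937 and 3129 on the CDL arrays (-0.38 ± 0.07, adjusted p = 0.00171). The isomerase Tpi1 gave 3356, 2936 and 2869 on the RDL arrays and 2406, 2207 and 2374 on the CDL arrays (-0.39 ± 0.08, adjusted p = 0.00452). Hexokinase, Hk2, rose from 212, 284 and 250.4 to 377, 472 and 373 (0.69 ± 0.17, adjusted p = 0.0184). The oxygen sensor Egln3, itself induced by low oxygen, fell from 71.7, 69.5 and 55.4 to 33.2, 37.8 and 33.3 (-0.72 ± 0.13, adjusted p = 0.00283). The calls of Ldha, Tpi1 and Hk2 were lost with the 6 arrays fitted alone, and that of Hk2 also without RDL replicate 3 or CDL replicate 2 (adjusted p 0.0515 to 0.0697). Of 20 cholesterol synthesis genes 1 rose and 0 fell (3 and 0 with that block), of 15 p53 targets 2 and 0, and of 13 heat shock genes and chaperones 0 and 2. The chaperone Hspa5, the marker of stress in the endoplasmic reticulum, was lower, at 6501, 6552 and 5951 on the RDL arrays and 5074, 4628 and 5667 on the CDL arrays (-0.31 ± 0.08, adjusted p = 0.0252), a call lost without RDL replicate 2 or CDL replicate 1 or 2 (adjusted p 0.0736 to 0.0929).

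Markers of other cell types that the sorted fraction could hold moved with the media in several cases. Of 10 tested genes of endothelium and blood 1 rose, Lmo2, and 5 fell. Kdr, the VEGF receptor, fell from 139.7, 157 and 139 to 63, 88.3 and 53.1 (-0.99 ± 0.13, adjusted p = 0.000171), and Emcn from 58.8, 32.9 and 36.3 to 10.3, 10.0 and 10.9 (-1.23 ± 0.12, adjusted p = 4.59e-06). The defining endothelial genes Cdh5, Pecam1 and Tie1 lay below the array median on all 6 arrays, and the summed signal of the list was 849.6 to 941 in RDL and 722 to 799 in CDL. Without Fli1 the sums were 630.4 to 661 in RDL and 698 to 774 in CDL, and without Fli1 and Lmo2 538 to 581 in RDL and 352 to 395 in CDL. The part of such cells in the Fli1 result was not tested. Of 9 lateral plate and cardiac genes 0 rose and 4 fell: Prrx1, Myl7, Bmp4 and Gata6. Gata6, a factor of heart and endoderm, gave 69.9, 82.9 and 85 on the RDL arrays and 34.2, 45.2 and 25.2 on the CDL arrays (-0.97 ± 0.14, adjusted p = 0.000226). Gata4, Hand2, Tbx5 and Tbx20 were below the array median throughout, and the list without Prrx1 summed to 616 to 687 in RDL and 457 to 509 in CDL. Of 8 endoderm genes 0 rose and 3 fell, Cer1, Dab2 and Sox17. Sox17, a factor of endoderm and endothelium, gave 49.7, 117 and 119.9 on the RDL arrays and 25.4, 26.6 and 26.9 on the CDL arrays (-1.4 ± 0.19, adjusted p = 0.000207), with -0.68 and -1.74 in set 1 and set 2. Its list without Cer1 summed to 537 to 688 in RDL and 424 to 474 in CDL, with Sox7 and Afp below the median.

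Fibroblasts are named because the ES cells had been kept on feeder cells before a passage without them. Of 10 tested fibroblast genes 0 rose and 5 fell (0 and 8 with the control set as a block), with Col3a1 at 6094, 7013 and 7276 on the RDL arrays and 3715, 4828 and 4393 on the CDL arrays (-0.66 ± 0.12, adjusted p = 0.00224). The list summed to 12143 to 13125 in RDL and 8574 to 9327 in CDL, and Thy1, a defining surface marker, was below the array median on all 6 arrays. Of its members 6 are also on the matrix list, and without these the sums were 2750.4 to 4428 in RDL and 2284 to 3405 in CDL, with overlapping groups. One of the 6, Col1a1, differed by -0.17 and -0.90 in set 1 and set 2. The sums without the 6 came mainly from Acta2 and Tagln, at 2447 and 1905 on RDL replicate 1. Both are also on the contractile list, so the overlap of these sums cannot decide the fibroblast content. Loxl1, another remaining member, gave overlapping signals of 41.1, 76.2 and 66.4 on the RDL arrays and 32, 45.4 and 28.6 on the CDL arrays. The part of such cells in the matrix result was not tested. Of 12 tested neural genes 4 rose and 1 fell. All CDL arrays lay above all RDL arrays in 4 of them, Stmn2, Ncam1, Zic1 and Nkx6-1, and below them in 3. Ncam1 gave 177, 337 and 285 on the RDL arrays and 456, 608 and 413 on the CDL arrays. Stmn2, a neuronal tubulin regulator, gave 93.5, 39.3 and 50.6 on the RDL arrays and 262, 147 and 162 on the CDL arrays (1.49 ± 0.23, adjusted p = 0.000455), and Irx5 fell from 76, 135 and 127 to 37.7, 45.9 and 34.7 (-1.24 ± 0.16, adjusted p = 0.000124). Sox2 read 61.3, 213 and 192 on the RDL arrays and 194, 262 and 254 on the CDL arrays (0.72 ± 0.76, adjusted p = 0.697), with overlapping groups, while Tubb3, Elavl3 and Dcx were below the array median on all 6. The neural list summed to 1113 to 1849.7 in RDL and 1773 to 2169 in CDL. Of 12 neural crest genes 1 rose and 3 fell, Snai2, Sox9 and Msx1 against Zic1, and Sox10 read 52.8, 53.1 and 49.6 on the RDL arrays and 48.2, 53.3 and 61.3 on the CDL arrays (0.05 ± 0.10, adjusted p = 0.862). The Msx1 call was lost with the control set as a block (adjusted p = 0.0509). Of 25 pluripotency genes 1 rose, Klf4, and 2 fell, Otx2 and Fgf5. Klf2 read 64.3, 60.4 and 86.6 on the RDL arrays and 199, 267 and 213 on the CDL arrays. Its groups did not overlap, and it did not pass the threshold. Dppa5a read 566, 268 and 364 on the RDL arrays and 379.7, 835 and 701 on the CDL arrays, with overlapping groups (0.65 ± 0.38, adjusted p = 0.395), and the list summed to 2982 to 3594 in RDL and 3449.8 to 4410.4 in CDL.

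**Figure D3:**
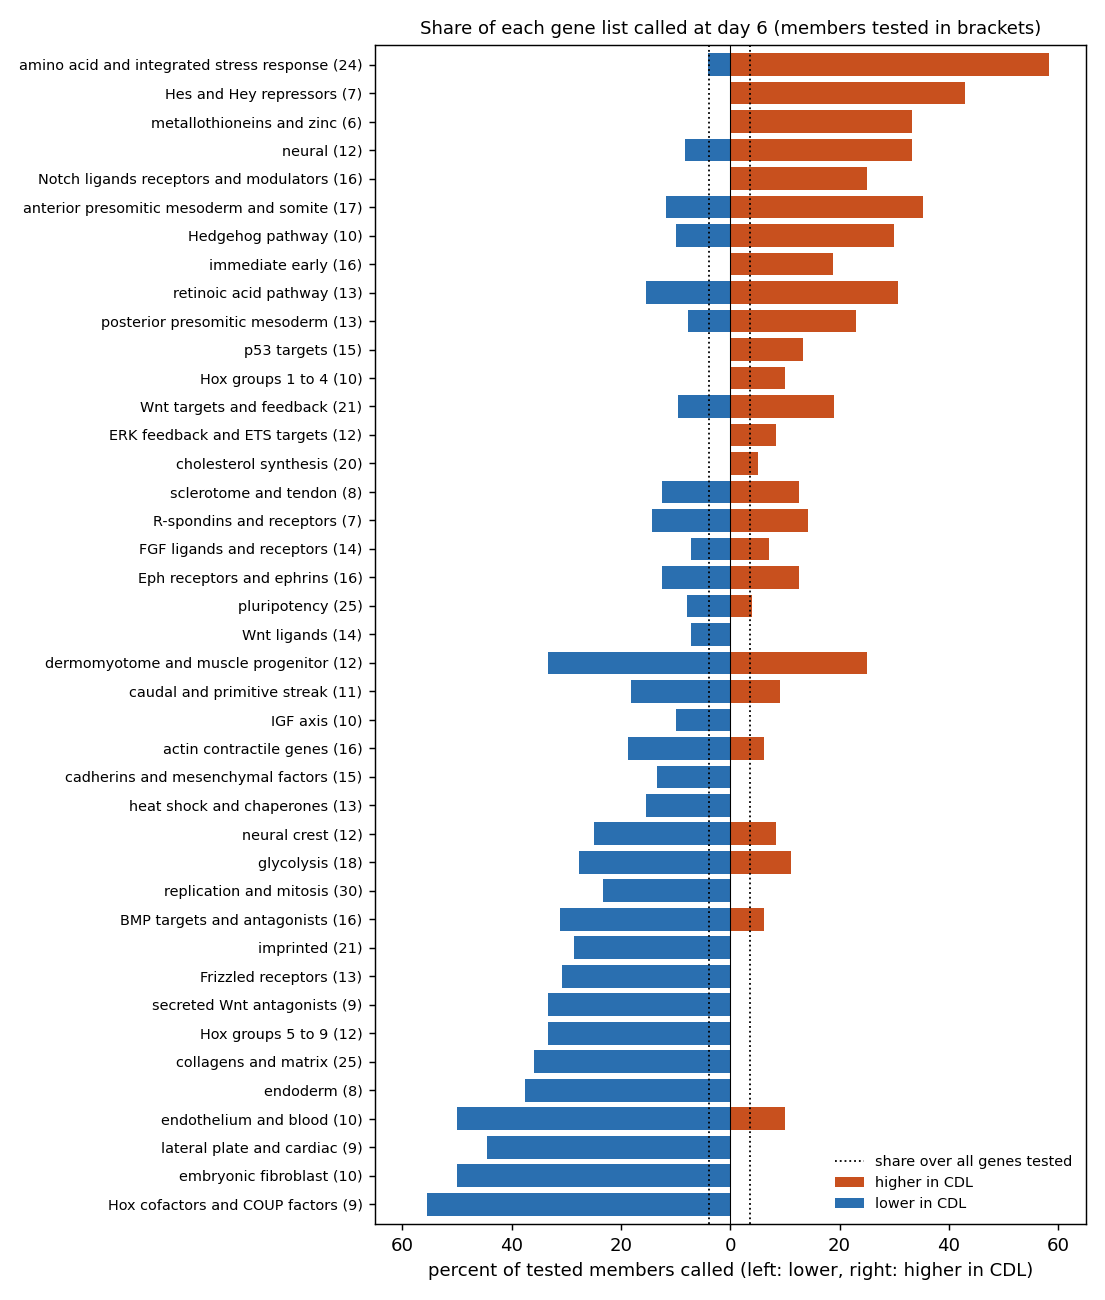
Percent of the tested members of each gene list that were called higher (orange, right) or lower (blue, left) in CDL at day 6, for lists with at least 6 tested members, with the number tested in brackets. Dotted lines mark the shares over all genes tested, 3.68% and 3.95%, and the lists are ordered from the largest net share higher to the largest net share lower.

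The same media were also compared at day 4, in cells of line E14 sorted for a Msgn1 reporter, with other arrays in both groups. There, 361 genes were higher in CDL (2.91%) and 190 lower (1.53%). At both days, 55 genes were higher and 40 lower. These are 12.1% of the higher calls of day 6 and 15.2% of those of day 4, and 8.16% of the lower calls of day 6 and 21.1% of those of day 4. Another 21 genes rose at day 6 and fell at day 4, and 12 did the reverse. The difference between the days was tested as an interaction of medium and day, and was past the threshold for 286 genes with a more positive difference at day 6 (2.3%) and 383 with a more negative one (3.09%). Of the 946 genes called at day 6, 417 were called in this interaction. Day also differed in line, strain and reporter, so these cannot be told apart from time.

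Of the 5 genes with the most positive interaction, 4 were somite genes. Tcf15 was -1.96 ± 0.22 at day 4 (adjusted p = 7.18e-05) and rose at day 6, an interaction of 3.46 ± 0.31 (adjusted p = 6.10e-06). Its day 4 signal was 395 ± 75.4 in RDL and 91.4 ± 13.6 in CDL (SD, n = 3). Meox1 fell at day 4 by a larger amount (-2.42 ± 0.18, adjusted p = 1.24e-06), and with no call at day 6 its interaction was 2.58 ± 0.25 (1.34e-05). Pax3 fell at day 4 (-0.85 ± 0.15, adjusted p = 0.00225) and rose at day 6, with an interaction of 1.61 ± 0.21 (0.000158). Efnb2, at -1.54 ± 0.26 on day 4, and Uncx, at -1.0 ± 0.33, had interactions of 2.58 ± 0.37 (0.000514) and 2.58 ± 0.47 (0.00325). Fgf18 and Hey1 fell at day 4 (-1.18 ± 0.16 and -0.87 ± 0.19) and rose at day 6, with interactions of 2.43 ± 0.23 and 2.13 ± 0.27 (adjusted p = 8.83e-06 and 0.000159). In the opposite direction, Trh rose at day 4 (1.0 ± 0.20, adjusted p = 0.00604) and fell at day 6, with an interaction of -3.05 ± 0.28 (7.59e-06). Otx2 and Fli1 showed 0.33 ± 0.24 and -0.03 ± 0.13 at day 4 and interactions of -3.12 ± 0.34 (3.48e-05) and -3.0 ± 0.19 (2.67e-07).

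Some differences passed the threshold on both days. Mt1 and Mt2 rose at day 4 by 2.07 ± 0.20 and 1.8 ± 0.19 (adjusted p = 2.00e-05 and 4.80e-05), and their interactions of -0.63 ± 0.29 and -0.53 ± 0.27 did not pass the threshold. Chac1 rose at day 4 (0.95 ± 0.21, 0.0145), whereas Nupr1 did not pass it (0.39 ± 0.23, 0.483) and differed between the days by 2.98 ± 0.33 (3.67e-05). Stmn2 rose by 1.52 ± 0.23 at day 4. Nr2f1, Meis1 and Sim1 fell on both days, with differences of -1.19 ± 0.18, -1.6 ± 0.16 and -1.52 ± 0.15 at day 4, and none of their interactions passed the threshold (adjusted p = 0.73, 0.0806 and 0.268). Hoxc8 and Hoxc5 did so as well (-0.87 ± 0.21 and -0.57 ± 0.11), and Cyp26a1 fell at day 4 by less (-0.86 ± 0.14) than at day 6 (interaction -0.86 ± 0.19, 0.0150). One array of this comparison, CDL day 4 replicate 1, stood apart from its mates; it enters the day 6 result through the shared spread, the filter and the choice of probe set, and without it 493 genes were higher and 542 lower at day 6.

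**Figure D4:**
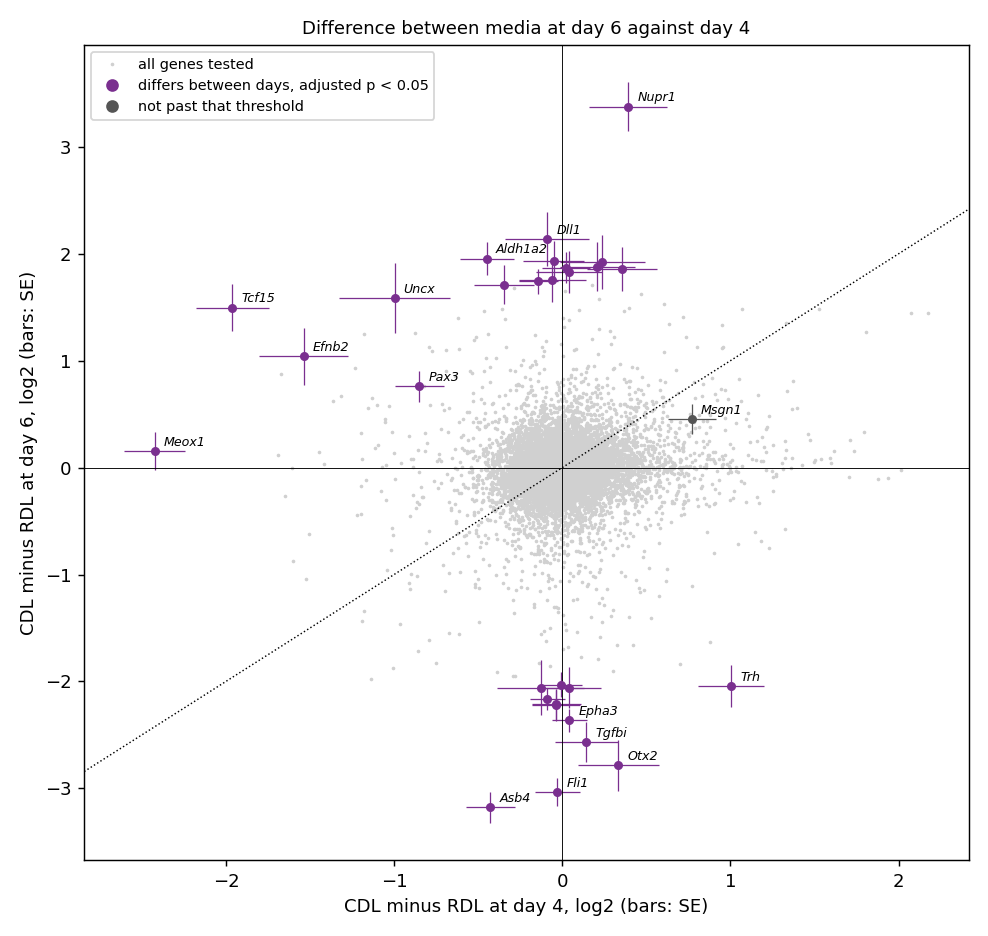
Difference between media (CDL minus RDL, log2) at day 6 on the vertical axis against day 4 on the horizontal axis, for all genes tested (grey) and for the genes named by size, for the interaction or as reporters (purple where the interaction passed an adjusted p of 0.05, dark grey where not; bars are SE; some names left out where points crowd). Tcf15, Efnb2, Uncx and Pax3 lie left of 0 and above it, and Trh lies right of 0 and below it; the 24 genes of largest difference were chosen on the day 6 axis, and the dotted line marks equal differences.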

How the data were processed

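Per the submitters' processing notes, the signal intensity of each probe set was made with MAS5; its version and the genome build behind the annotation are not given in the sources used here, and the values were used as deposited by the authors. Of 45101 probe sets, 64 controls were left out and 34945 carried 1 gene symbol. Log2 values were computed here from the deposited intensities after adding a constant of 12.6, which is the 25th percentile of the signal on the median array. A probe set was kept where 3 or more of the 15 arrays had it over the array's 50th percentile, and the one with the highest mean stood for its gene, which left 5785 of 18193 genes out as dim.

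Group means over all 15 arrays in 5 groups were fitted with limma 3.58.1 in R 4.3.3 (eBayes with an intensity trend), with Benjamini-Hochberg adjustment over the 12408 genes and a threshold of 0.05. The fit was tested on simulated data. Python 3.11.15 and matplotlib 3.10.9 drew the figures. Alternatives were other filters, constants (1 and 50), quantile normalization, probe set means, no trend, the 6 arrays alone, a replicate block, each array left out and, added after seeing the data, the control set as a block and 2 arrays left out together. Named genes were the 12 largest called differences each way without overlap of the groups, passing over clones and predicted genes, the 5 largest interactions each way, Pax3 and Msgn1, and from each of 45 lists up to 6 called members by size and 4 others by level. The comparison, members and lists were chosen with earlier results of these data known. Genes without a named probe set were not analysed here.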

Additional observations from a re-analysis of the deposited data

Results flagged for a closer look

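Each result here is a difference between media at day 6 minus the same difference at day 4 (log2), which limma's interaction test found past an adjusted p of 0.05; the days also differ in cell line, strain and sort reporter. Of 141 named genes called at day 6, 85 passed it, against 417 of all 946 called genes; the named genes include those chosen for the size of the interaction, so the first share is set in part by the choice. For the genes of somites and of the presomitic mesoderm the value was 3.46 for Tcf15, 2.58 for Uncx, 2.58 for Meox1, 2.58 for Efnb2, 2.55 for Dmrt2, 2.4 for Aldh1a2, 2.23 for Dll1, 1.61 for Pax3 and -1.77 for Epha4. Among other signalling genes it was 2.43 for Fgf18, 2.13 for Hey1, 1.89 for Tnfrsf19 and 1.07 for Dhrs3. Of these, Dmrt2, Efnb2, Tcf15, Pax3, Fgf18, Hey1 and Dhrs3 rose at day 6 and fell at day 4, and Epha4 did the reverse.

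Genes of stress and metabolism gave 2.98 for Nupr1, 1.79 for Cth, 1.67 for Slc7a3, 1.5 for Ptgds, 2.06 for Ppp1r1a and -1.76 for Egln3. The transcriptional regulators gave 1.98 for Lmo2, 1.68 for Klf4, 1.81 for Zic5, -3.12 for Otx2, -3.0 for Fli1 and -2.03 for Prrx1. The others were 1.85 for Dleu7, -2.75 for Asb4, -3.05 for Trh, -2.71 for Tgfbi, -2.41 for Epha3, -2.19 for Lum, -2.18 for Mir99ahg, -2.1 for Spink1, -2.08 for Mc2r and -1.93 for Dlk1.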

How the results depend on the processing

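Counts of higher and lower genes at day 6 moved most with the arrays and the spread used. With the 6 arrays alone 182 were higher and 263 lower, and a filter at the 75th percentile left 325 lower. With the control set as a block the counts were 1247 and 1107, or 1170 and 1029 within the 6 arrays. Leaving out 1 array at a time gave 308 to 647 higher and 356 to 868 lower, both highest without RDL replicate 1. Without it and CDL day 4 replicate 1 they were 755 and 1023. A constant of 50 left 51 genes at least 2-fold lower, against 105, by compressing dim signals. Interaction counts of 286 more positive and 383 more negative became 710 and 614 with the control set as a block, 561 and 677 without both arrays, 211 to 552 and 294 to 666 with 1 array left out, and 222 more negative under the stricter filter. Same-numbered arrays of the 2 media had residual correlations of 0.609, 0.588 and -0.242, and CDL replicate 3 correlated best with RDL replicate 1, so the numbers were not taken as a pairing. The replicate block on the 6 arrays gave 513 higher and 564 lower, and on the 12 sorted arrays 322 and 402 for the interaction. Among the lists that moved by over 1.5 times without both arrays, the higher and lower calls became 0 and 12 for imprinted genes, 0 and 11 for replication and mitosis, 2 and 5 for contractile genes, 1 and 3 for Hox groups 1 to 4, 0 and 3 for the IGF list, 3 and 3 for pluripotency, 2 and 0 for ERK targets and 2 and 0 for cholesterol synthesis. Of 141 named calls, 51 were lost with the 6 arrays alone, 14 to 27 without 1 day 6 array and 0 to 10 under the other alternatives, and 0 reversed. Genes that a filter removed are not counted as lost. The filter at the 75th percentile kept 101 calls and lost 4, and the rest of the 141 could not be assessed under it. The 24 genes named by size kept their call wherever tested. With 3 arrays per group and no detection calls used, sizes for signals near the constant are uncertain.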
